A study of Mus musculus with 24 samples.

Results

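Gene expression was compared between the 4 mouse blastocyst pools coded HC1 and the 4 pools coded HC5. These are 8 of the 24 pools of the series, chosen by the code in their titles and by no measured value. Each of the 8 pools held 15 frozen expanded blastocysts, and 2 ng of its total RNA was amplified, labelled with the dye Cy3 and hybridised to its own one-colour microarray. The title of the series is about bisphenol A, a plastic monomer with estrogenic activity, and about estrogen receptors at the cell membrane. The labels give each condition as a code alone. They do not say which agent, dose or exposure HC1 or HC5 stands for, name no control, and give no strain or age. The comparison is therefore one of code with code, and every difference is written as HC5 minus HC1. The other 16 pools, with the codes HC2, HC3, HC4 and HC6, were used for the spread between pools and as a range to set the 8 pools against. The 4 HC6 pools held 20 embryos each, and the rest 15.

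An expanded blastocyst is a hollow sphere of trophectoderm, the epithelium that later attaches to the uterus, around an inner cell mass. The inner cell mass sorts into epiblast, which gives rise to the body of the embryo, and primitive endoderm, which lines the cavity and lays down basement membrane. Embryos at this stage make cholesterol from acetyl-CoA through mevalonate and squalene, and the genes of this route share control by sterol-responsive transcription factors of the SREBP family, which act beside the CCAAT-binding factor NF-Y.

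Signal levels are given as log2 values relative to the 75th percentile of each array, so that 0 is the signal at that percentile. Among the 8 arrays that percentile lay between 47.3 and 123 units of processed signal, and 39.1% to 48.3% of spots were well above the local background. The HC5 replicate 4 array was lowest on both measures. The number of arrays limits the precision. All 11 marker genes checked for epiblast (Pou5f1, Nanog, Sox2), trophectoderm (Cdx2, Krt8, Krt18, Eomes) and primitive endoderm (Gata6, Gata4, Sox17, Pdgfra) were well above background on all 8 arrays. Of 7 markers of cumulus and granulosa cells, 5 were above background on none of the 8 arrays, as were the 3 fibroblast markers. Of 4 blood and immune markers, Ptprc and Cd68 were above background on all 8 arrays, Hba-a1 on 5 and Alas2 on none. Of 3 sperm markers, Prm2 passed in all 4 HC1 pools and in 2 HC5 pools, Prm1 in 2 and 1, and Tnp1 in none.

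The pools did not separate by code. Of 18397 genes tested, 0 passed an adjusted p of 0.05 in limma (Benjamini-Hochberg), which is 0% called, and the smallest adjusted p was 0.538. Before adjustment, 859 genes (4.67%) had a p under 0.05, where 920 would fall there by chance alone. Of these, 406 (2.21%) were higher and 453 (2.46%) lower in HC5. All 4 pools of one code lay above all 4 of the other for 300 genes (1.63%), of which 154 (0.837%) were higher and 146 (0.794%) lower in HC5. The HC5 mean was above the HC1 mean for 50.4% of genes, and the median difference over all genes was 0.0018 log2 units. The root mean square distance between 2 pools over genes was 0.336 to 0.454 within HC1, 0.301 to 0.574 within HC5 and 0.295 to 0.598 between the codes.

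**Figure D1:**
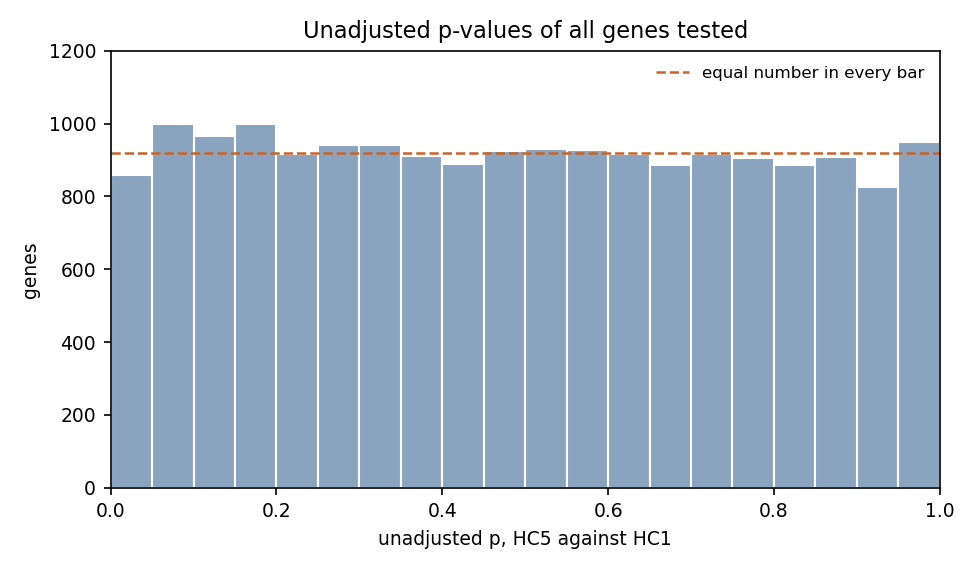
Histogram of the unadjusted limma p-values of HC5 against HC1 for 18397 genes, in 20 bars of equal width, with the number of genes on the vertical axis. The dashed line marks 920 genes, an equal number in every bar. The bars hold between 826 and 1000 genes, and the first bar, with the smallest p-values, holds 859.

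The absence of calls has a limited reach. The median standard error of a difference was 0.195 log2 units, and for 77.1% of genes the 95% interval of the difference lay within a 2-fold change either way. Differences of 2-fold or more were estimated for 328 genes, of which 13 were well above background on all 8 arrays. Since the labels do not tie pools to animals, a p-value here covers only pool-to-pool spread, which may be technical. HC5 against the mean of the 4 codes outside the pair also gave 0 calls (0%), with 935 genes (5.08%) at an unadjusted p under 0.05. HC1 against the same 4 codes gave 0 calls (0%) and 532 such genes (2.89%).

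HC5 replicate 4 stood apart. Over the 13323 genes well above background on all 8 arrays, its root mean square distance from the mean of the other HC5 pools was 0.516, against 0.316 to 0.366 for HC1 pools and HC5 replicates 1 and 2, and 0.392 for HC5 replicate 3. Its deviation also ran with the GC content of the probe. Relative to the other 7 pools, its median deviation was -0.34 among genes with a probe GC under 36.7% and 0.28 among those above 45%. The same medians ran from -0.18 to 0.16 and from -0.12 to 0.05 in the other 7 pools. In the comparison of the codes, the median difference in these bins was -0.05 and 0.08. With the trend against probe GC removed from each array, 0 genes were called and 994 had an unadjusted p under 0.05.

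The 12 genes of smallest unadjusted p that were higher in HC5 differed by 0.36 to 0.80 log2 units. They were picked for their p-values, so the values below describe them, and none passed after adjustment. Tnfrsf12a, the receptor for the cytokine TWEAK, had levels of 0.77, 0.68, 1.12 and 0.75 in HC1 replicates 1 to 4 and of 1.53, 1.26, 1.12 and 1.64 in HC5. All HC5 pools were higher, although the nearest pools both read 1.12. The difference was 0.56 ± 0.11 log2 units (SE, 4 pools a code), a 1.47-fold change, with an unadjusted p of 8.88e-05 and an adjusted p of 0.538.

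Ccn1 (also Cyr61), a matrix protein and a classic target of the Hippo pathway's coactivators YAP and TAZ, had the third smallest p on this side. Its levels were 1.12, 0.72, 1.18 and 1.25 in HC1 and 1.54, 1.81, 1.68 and 2.20 in HC5. The codes did not overlap, and the 16 other pools averaged 1.48 ± 0.27 (SD), between the 2 codes. The difference was 0.74 ± 0.18 (SE), or 1.67-fold, with an unadjusted p of 0.000569 and an adjusted p of 0.805. Since the codes did not overlap, its sign was fixed in any subset of the pools, and only its size could vary. The size was 0.56 and 0.92 within the slide rows and 0.42 to 1.09 within the 4 slide columns. Without HC5 replicates 3 and 4 it was 0.61. The 250 bases before the Ccn1 start (RefSeq, GRCm38.p6, chr3:145649986-145650235, minus strand) are shown because YAP and TAZ act through TEAD factors. The capitals mark a match to the TEAD motif GGAATG, searched on both strands, here on the strand opposite to the one shown.
Ccn1: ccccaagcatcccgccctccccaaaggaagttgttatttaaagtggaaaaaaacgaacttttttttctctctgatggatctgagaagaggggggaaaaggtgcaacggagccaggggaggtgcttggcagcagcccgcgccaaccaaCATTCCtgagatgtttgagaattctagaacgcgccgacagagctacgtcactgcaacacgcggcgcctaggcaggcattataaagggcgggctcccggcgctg
That motif was present in 13 of the 20 promoters of Hippo pathway members on the same length of 300 bases, or 65%, against 14.7% of all 32851 RefSeq promoters of that length. A match is a description of the letters and not a site of binding.

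Dusp1 encodes a phosphatase that switches off MAP kinases. It read 1.59, 1.93, 1.70 and 1.68 in HC1 and 2.01, 2.48, 2.31 and 2.12 in HC5, with no overlap and a difference of 0.51 ± 0.14 (SE, adjusted p = 0.96). Gadd45b, a stress-induced growth arrest gene, read 0.91, 0.75, 1.04 and 0.76 in HC1 and 1.13, 1.46, 1.11 and 1.95 in HC5. Here too the codes were apart, by a narrow margin, and the highest value came from HC5 replicate 4. The difference was 0.55 ± 0.16 (SE, adjusted p = 0.96) and 0.37 without that pool.

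Ptk2b, the cytoplasmic tyrosine kinase PYK2, had pools close together within each code. It read 1.84 to 1.99 in the 4 HC1 pools and 2.37 to 2.49 in the 4 HC5 pools, a difference of 0.52 ± 0.14. A second Ptk2b probe was also higher in HC5, by 0.39, with overlapping pools. The other genes of smallest p on this side were Pla2g12a (a secreted phospholipase), Prkd2 (protein kinase D2), Trmt61a (a tRNA methyltransferase subunit), Klhl1 (an actin-binding kelch protein), Cd81 (a tetraspanin), Prrc1 and Syngr2 (a vesicle membrane protein). Their differences ran from 0.36 for Prrc1 to 0.80 for Klhl1, and their adjusted p-values from 0.805 to 0.96. Among genes with wide gaps between the codes, Nfatc2, a calcium-regulated transcription factor, was higher in HC5 by 0.63, and Tmem160, a mitochondrial membrane protein, by 0.40.

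Among genes lower in HC5, Rfx4, a transcription factor of the RFX family, had the smallest p. It read 0.33, 0.36, 0.54 and 0.46 in HC1 and -0.39, 0.06, -0.13 and -0.60 in HC5. The codes did not overlap, and the mean of the 16 other pools (0.13) lay between them. The difference was -0.69 ± 0.15 (SE), with an unadjusted p of 0.000234 and an adjusted p of 0.538. Fmr1, which encodes the RNA-binding protein FMRP, read 0.68, 0.84, 1.1 and 1.0 in HC1 and 0.52, 0.23, 0.37 and 0.34 in HC5. These pools did not overlap, and the difference was -0.54 ± 0.13 (adjusted p = 0.76). A second bright Fmr1 probe gave -0.28. After normexp background correction with quantile normalization, where the brightest probe was chosen anew, the gene gave -0.17.

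Adgre5, an adhesion receptor also known as CD97, read 3.85, 3.92, 4.22 and 4.03 in HC1 and 3.30, 3.73, 3.44 and 3.16 in HC5. No HC5 pool reached the lowest HC1 pool, and the difference was -0.60 ± 0.17 (adjusted p = 0.96). Sos1, the exchange factor that loads Ras with GTP below growth factor receptors, read 0.72, 0.76, 0.56 and 0.29 in HC1 and 0.19, 0.39, -0.07 and -0.44 in HC5, and these pools overlapped. The mean over its 3 kept probes gave 0.01, since the dimmer ones read 0.23 and 0.37. The remaining genes on this side were Tmem237 (a ciliary membrane protein), Napepld (a phospholipase that makes N-acylethanolamines), Alg2 (an enzyme of N-glycan assembly), Aldh6a1 (valine breakdown), Cdkl2, Zfp617, Krit1 (a junction protein) and Kbtbd7. Their differences ran from -0.71 for Tmem237 to -0.39 for Alg2. A second bright probe for Zfp617 gave 0.01, so the probes of this gene disagree. For Krit1 a second bright probe gave -0.01 against -0.60 for the used one, and the mean over its kept probes gave -0.17. Of the genes with wide gaps, Clec2g, a lectin-like receptor, differed by -1.02 log2 units and Cdh26, a cadherin, by -0.25. After normexp background correction with quantile normalization, 10 of the 24 genes of smallest p had a difference smaller by over 1.5 times, with no change of sign. Klhl1 then differed by 0.37, Prkd2 by 0.28, Tmem237 by -0.27 and Rfx4 by -0.41, and of the genes with wide gaps Nfatc2 by 0.23 and Clec2g by -0.44. Probe GC ran from 35% (Ptk2b, Dusp1, Cd81) to 55% (Tnfrsf12a, Pla2g12a, Prkd2, Prrc1) among the 12 genes higher in HC5. Among the 12 lower genes it ran from 35% (Alg2, Aldh6a1, Zfp617, Krit1, Sos1, Kbtbd7) to 45% (Rfx4, Adgre5). Without HC5 replicates 3 and 4, Prrc1 differed by 0.14 and Kbtbd7 by -0.29.

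**Figure D2:**
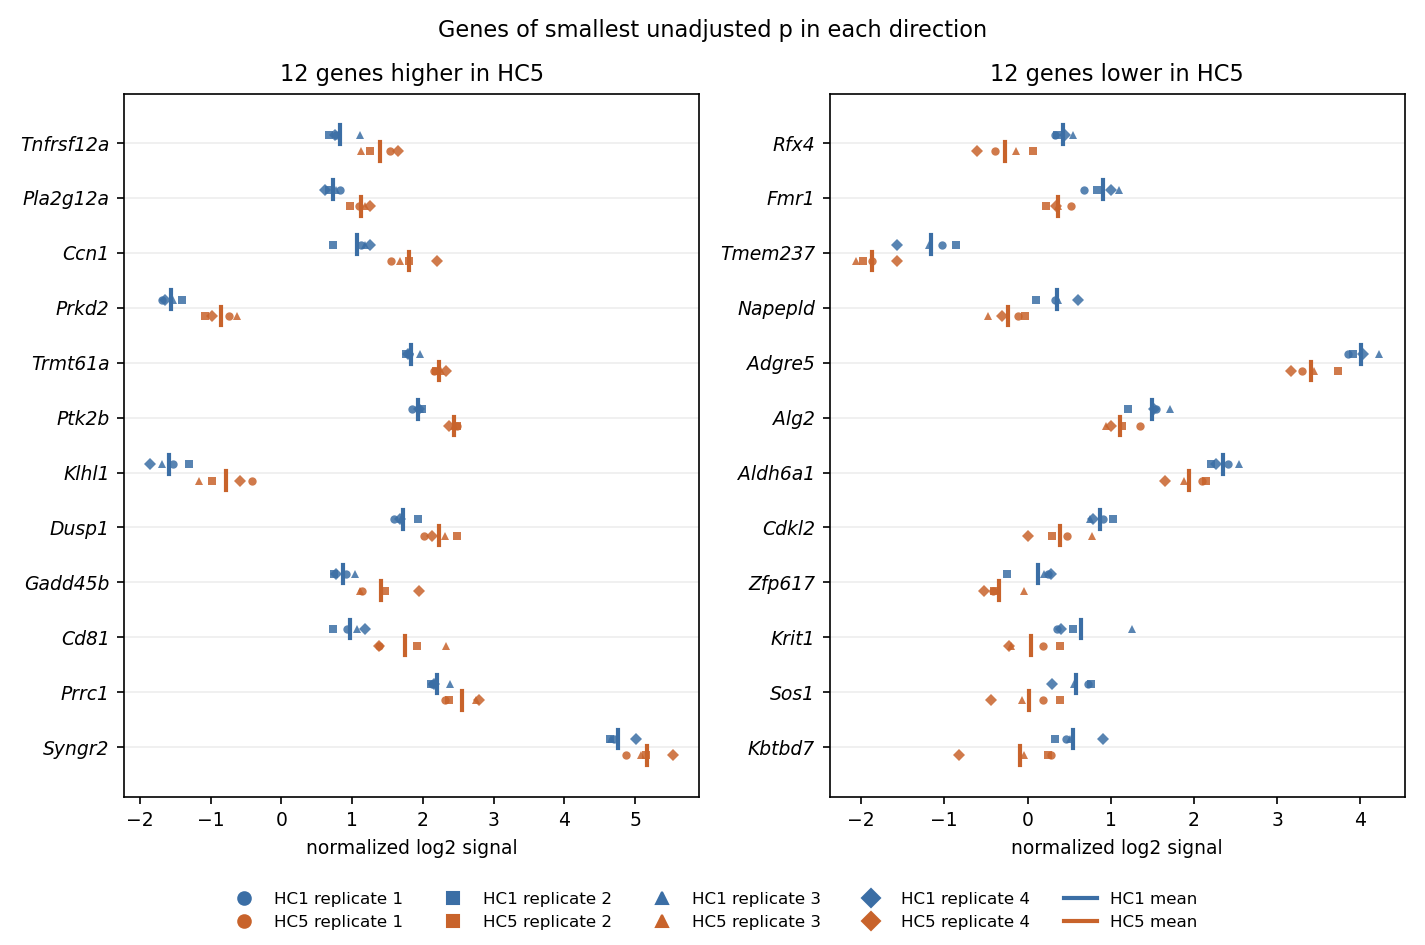
Normalized log2 signal (horizontal axes) of the 12 genes higher and the 12 genes lower in HC5 with the smallest unadjusted p among genes well above background on all 8 arrays. Each point is 1 pool, shape gives the replicate, vertical bars are means of 4 pools, and none of the 24 genes passed after adjustment. The codes are apart for Ccn1, Ptk2b and Rfx4 and overlap for Syngr2 and Sos1.

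The genes of cholesterol synthesis leaned towards HC5 as a group. Of 20 members tested of 21 listed, all well above background on all 8 arrays, 18 were higher and 2 lower in HC5, with a median difference of 0.23 log2 units, against a median of 0.0018 and 50.4% higher over all genes tested. None passed after adjustment. At an unadjusted p under 0.05 there were 5 members, all higher in HC5, beside a background of 2.21% in that direction. That count was 2 without HC1 replicate 3, 3 without HC5 replicate 4, 0 without HC5 replicates 3 and 4, and 2 with the 8 arrays alone or with array weights. The list was chosen with earlier results of these data known, so these counts describe it and are no test of it.

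In the first stage, from acetyl-CoA units through mevalonate to isoprenoids, all 8 genes were higher in HC5, with a median difference of 0.26. Hmgcs1, an early synthase of the mevalonate branch, read 4.41, 4.13, 3.77 and 3.93 in HC1 and 3.86, 3.99, 4.42 and 4.23 in HC5. The pools overlapped fully, and the gene differed by 0.06, with a 95% interval of -0.30 to 0.42. The kinases Mvk and Pmvk, which phosphorylate mevalonate in turn, differed by 0.21 and 0.31. Pmvk read 5.36, 5.37, 5.15 and 5.25 in HC1 and 5.34, 5.60, 5.61 and 5.80 in HC5, where replicate 1 lay within the HC1 range (unadjusted p = 0.0249, adjusted p = 0.96).

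Mvd, the decarboxylase of the same branch, read 1.14, 0.86, 0.93 and 1.03 in HC1 and 1.25, 1.11, 1.11 and 2.15 in HC5. The value of HC5 replicate 4 was far above the others, and the difference of 0.42 ± 0.19 (SE) was 0.17 without that pool. Fdps, which joins isoprenoid units into farnesyl diphosphate, had the smallest unadjusted p of the pathway (0.00796, adjusted p = 0.96). It read 5.09, 5.23, 4.60 and 5.04 in HC1 and 5.11, 5.38, 5.59 and 5.63 in HC5. HC1 replicate 3 was lowest, and HC5 replicate 1 was the only HC5 pool inside the HC1 range. The difference was 0.44 ± 0.15 (SE), with a 95% interval of 0.13 to 0.74. Idi1, which isomerises isopentenyl diphosphate, differed by 0.21, and Ggps1, which makes geranylgeranyl diphosphate, by 0.32, both with intervals that span 0. The mean over the 6 kept Ggps1 probes gave 0.08. The 4 other bright probes were also higher in HC5, and a probe bright on 7 arrays gave -0.56.

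The 3 genes from squalene to lanosterol were also higher on average. Fdft1, squalene synthase, differed by 0.32 (95% interval -0.05 to 0.68), Lss, lanosterol synthase, by 0.16, and Sqle, squalene epoxidase, by 0.08. Sqle read 4.29 in HC5 replicate 4 and between 5.06 and 5.15 in the other 3 HC5 pools.

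Of the 9 genes that turn lanosterol into cholesterol, 7 were higher and 2 lower in HC5. Cyp51, the lanosterol demethylase, read 2.58, 2.18, 1.94 and 2.34 in HC1 and 2.57, 2.59, 2.52 and 3.03 in HC5. HC1 replicate 1 lay among the HC5 pools and the other 3 HC1 pools below them. The difference was 0.41 ± 0.16 (unadjusted p = 0.0191, adjusted p = 0.96), or 0.30 without HC5 replicate 4. A second bright Cyp51 probe gave 0.14, with overlapping pools and its lowest value, -1.135, in HC5 replicate 4. Nsdhl and Msmo1, which remove the methyl groups at the next steps, differed by 0.43 and 0.25, and Dhcr7, a late reductase of the route, by 0.25. Hsd17b7 differed by 0.13 and Ebp, a sterol isomerase, by 0.01. The lower members were Tm7sf2, a sterol reductase, at -0.17 and Sc5d, a sterol desaturase, at -0.06, with intervals that span 0. A second bright Tm7sf2 probe gave -0.51, and the mean over its kept probes gave -0.34.

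Promoters are shown for 3 of these genes, one where HC5 replicate 4 set the value (Mvd), one with the lower HC5 pools close together (Cyp51) and one that hardly differed (Hmgcs1). Each run holds the 250 bases before the start, from RefSeq on GRCm38.p6. Capitals mark matches, on either strand, to the CCAAT box (CCAAT) bound by NF-Y and to the sterol regulatory element TCACNCCAC. The Mvd run is chr8:122443423-122443672 and the Cyp51 run chr5:4104698-4104947, both on the minus strand, and the Hmgcs1 run is chr13:119690101-119690350 on the plus strand.
Mvd: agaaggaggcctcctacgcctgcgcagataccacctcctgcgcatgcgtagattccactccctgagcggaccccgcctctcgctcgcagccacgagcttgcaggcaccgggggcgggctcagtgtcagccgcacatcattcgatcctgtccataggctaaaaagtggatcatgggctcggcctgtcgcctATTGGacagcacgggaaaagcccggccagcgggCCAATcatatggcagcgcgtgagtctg
Cyp51: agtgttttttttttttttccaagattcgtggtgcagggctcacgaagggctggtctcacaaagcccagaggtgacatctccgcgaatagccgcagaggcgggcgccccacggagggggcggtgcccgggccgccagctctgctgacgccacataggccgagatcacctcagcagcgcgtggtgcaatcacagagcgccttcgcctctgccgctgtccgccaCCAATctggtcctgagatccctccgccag
Hmgcs1: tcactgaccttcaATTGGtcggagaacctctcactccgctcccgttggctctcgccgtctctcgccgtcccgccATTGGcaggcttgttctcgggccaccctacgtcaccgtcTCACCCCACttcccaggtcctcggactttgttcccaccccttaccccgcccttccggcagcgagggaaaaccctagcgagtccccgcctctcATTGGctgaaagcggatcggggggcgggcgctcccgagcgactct
A promoter entry of 300 bases was found for 15 of the 20 members, and each of the 15 had at least 1 promoter with a CCAAT box. Counted over entries, 15 of 18 promoters (83.3%) held one, against 37.4% of 32851 RefSeq promoters of that length. The sterol element was present in 1 of the 18, that of Hmgcs1, against 1.24% of all promoters. The CCAAT box was shared by genes that differed between the codes by 0.06 (Hmgcs1) and by 0.42 (Mvd), and no match in a window says nothing about SREBP binding elsewhere.

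**Figure D3:**
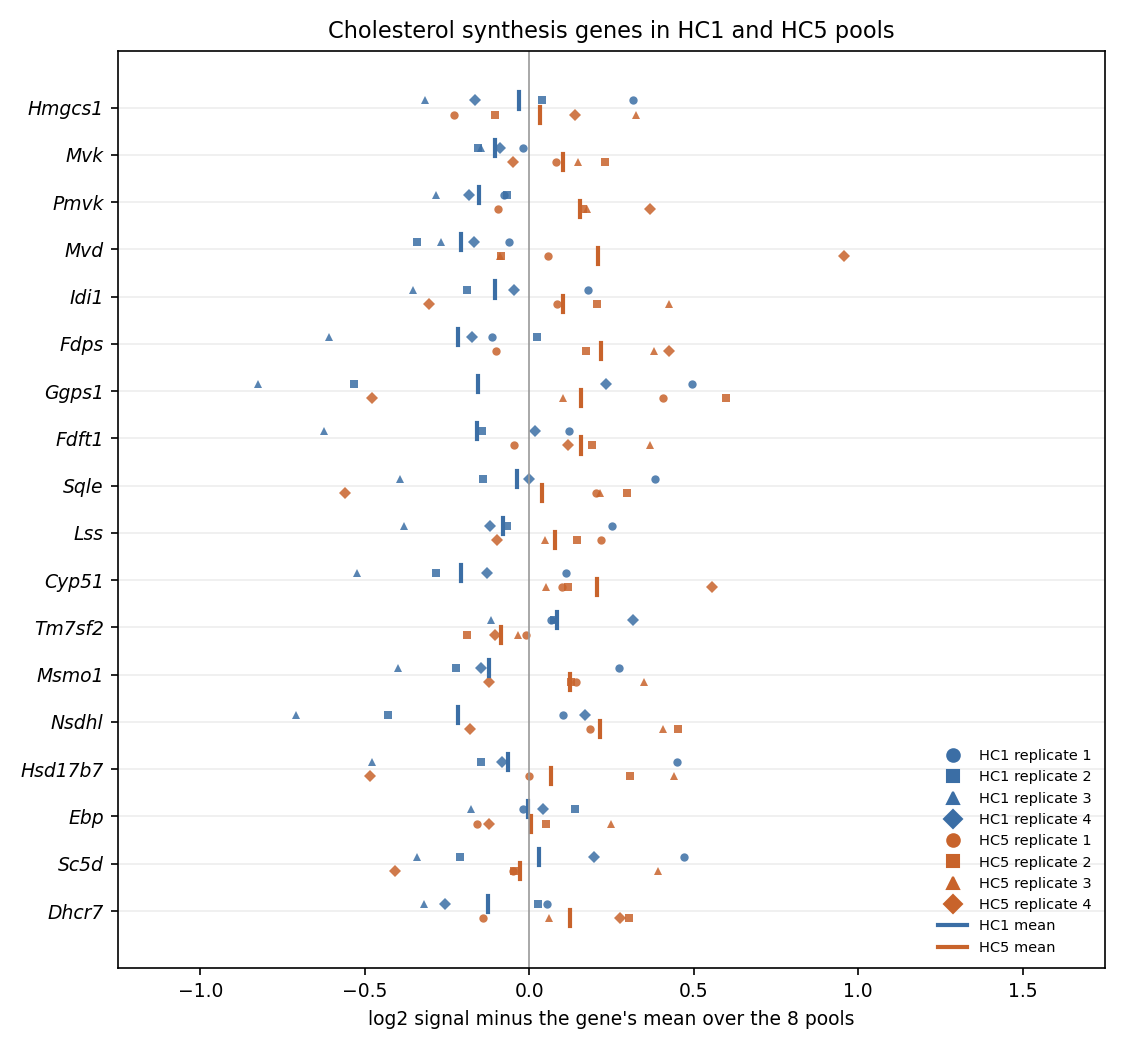
Log2 signal of 18 cholesterol synthesis genes in each pool, in pathway order, with the mean of the gene over the 8 pools subtracted (horizontal axis). Points are pools, shape gives the replicate and vertical bars are means of 4 pools. The HC5 mean lies to the right for 16 of these 18 genes, and HC1 replicate 3 is the leftmost pool for 12 of them.

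Probe GC of the list was close to that of other genes, with a median of 44.2% against 43.3% over genes well above background on all 8 arrays. The cholesterol difference varied with the pools compared. As a score, the mean deviation of the members from their 24-array means, the HC1 pools stood at 0.20, -0.09, -0.32 and 0.01 and the HC5 pools at 0.11, 0.21, 0.29 and 0.06. The codes overlapped through HC1 replicate 1. HC1 replicate 3 was below, and HC5 replicate 3 above, all 16 pools of the other codes, which ranged from -0.27 to 0.24. HC1 replicate 3 had the lowest of the 8 values for 13 of 20 members. Without it the median difference was 0.16 with 14 of 20 members higher, and without HC5 replicate 4 it was 0.28 with 19 of 20. Against the mean of the 4 codes outside the pair, the median of the members was 0.19 in HC5 and -0.01 in HC1.

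Each slide column held 1 HC1 and 1 HC5 array in opposite rows, so the list can be read within columns. Its median difference was -0.08, 0.59, 0.28 and 0.02 in columns 1 to 4, each from 1 pool a code, where the median of all genes was -0.05, -0.01, 0.16 and -0.11. It was 0.17 and 0.24 within slide rows 1 and 2 (all genes 0.03 and -0.02). Within the 3 slides, which held 1 or 2 pools a code each, it was 0.08, 0.53 and 0.18 (all genes 0.01, 0.05 and -0.07). The direction was thus the same in both rows and all slides and differed in column 1. With so few pools in each, these values cannot separate array position from the pools themselves. With the trend against probe GC removed from each array the median was 0.26, with 18 of 20 higher.

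Genes that sense or move sterols did not lean the same way. Of 24 tested members of that list, 13 were higher and 11 lower in HC5, and the median difference was 0.00, with 0 members at an unadjusted p under 0.05. Insig1, which holds SREBP in the endoplasmic reticulum, read -0.31, -0.39, -0.31 and 0.17 in HC1 and -0.49, 0.39, 0.79 and -0.21 in HC5, and the pools overlapped widely. Lrp8, a lipoprotein receptor, differed by 0.64 (95% interval -0.05 to 1.34), with 1.61 in HC5 replicate 3 and at most 0.19 in the other 7 pools, and by 0.24 without that pool. Npc2, a lysosomal sterol carrier, stood at 4.99 in HC5 replicate 1 and at 3.63 to 3.90 elsewhere. Of 19 fatty acid synthesis genes, 10 were higher and 9 lower. Acly, which supplies cytosolic acetyl-CoA to both pathways, was barely higher in every HC5 pool (4.85 to 5.0, against 4.69 to 4.85 in HC1), while Acaca, the first committed enzyme of fatty acid synthesis, differed by -0.22 (95% interval -0.43 to 0.00).

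Primitive endoderm genes leaned the other way, and here single pools set the value. Of 21 tested members of 23 listed, 19 were lower and 2 higher in HC5, with a median difference of -0.21. Those at an unadjusted p under 0.05 were 2, both lower, beside a background of 2.46%. Gata6, a transcription factor that starts this lineage, read 5.04, 4.99, 5.04 and 5.08 in HC1 and 4.67, 4.91, 5.0 and 4.36 in HC5. The HC1 pools were close together and HC5 replicate 3 lay among them, while the other HC5 pools were below. The difference was -0.30 ± 0.12 (SE, unadjusted p = 0.0224, adjusted p = 0.96), and a second bright probe gave -0.20. Without HC5 replicate 4 the difference was -0.18. Pdgfra, a receptor of the same cells, read 2.52, 1.93, 2.33 and 2.50 in HC1 and 2.44, 2.15, 1.08 and 1.84 in HC5, where replicate 3 was lowest. Its difference was -0.44 ± 0.21 (SE, unadjusted p = 0.0449, adjusted p = 0.96), and -0.18 without that pool.

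Lama1, a laminin chain of basement membrane, read 7.25, 6.33, 7.26 and 6.79 in HC1 and 7.33, 6.75, 5.96 and 6.25 in HC5, and Lamb1, its partner chain, differed by -0.36 (95% interval -0.80 to 0.09). P4ha2, a collagen hydroxylase, differed by -0.40 with an interval that spans 0. Gata4 and Sox17, later factors of the lineage, differed by -0.10 and -0.09. Gata4 stood at 0.64 in HC5 replicate 3, the lowest of the 8, and at 2.19 in HC5 replicate 1, the highest.

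As a score, the primitive endoderm list read 0.32, -0.24, 0.32 and 0.04 in HC1 and 0.46, -0.00, -0.69 and -0.10 in HC5. HC5 replicate 3 was the lowest and HC5 replicate 1 the highest of all 24 pools, since the 16 other pools ran from -0.27 to 0.34. HC5 replicate 3 was lowest of the 8 for 14 of 21 members, and HC5 replicate 1 highest for 13. Without HC5 replicate 3 the median difference was 0.08, and without HC5 replicates 3 and 4 it was 0.14, so the direction turned. It was -0.58 in slide row 1 and 0.18 in slide row 2, and 0.12, -1.12, 0.25 and -0.12 in columns 1 to 4. In bulk RNA from a pool, fewer cells of a lineage and less RNA per cell cannot be told apart.

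The other lineages differed less. Of 21 epiblast and pluripotency genes, 7 were higher and 14 lower in HC5, with a median of -0.08. Tbx3, a pluripotency-associated transcription factor, read 4.95, 5.02, 4.94 and 4.98 in HC1 and 4.69, 4.71, 4.66 and 4.84 in HC5, with no overlap. The difference was -0.25 ± 0.09 (unadjusted p = 0.0118, adjusted p = 0.96). Pou5f1, the core factor of pluripotency, differed by 0.25 (95% interval -0.13 to 0.64) with its highest value, 4.38, in HC5 replicate 4, and by 0.04 without that pool. The used Nanog probe gave -0.15 and a second bright one 0.67, so the probes of this gene disagree. Nanog also has near-identical pseudogene copies, which makes its signal uncertain. Klf2 and Klf4, further naive factors, differed by -0.21 and -0.15 with intervals that span 0.

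Of 19 trophectoderm genes, 9 were higher and 10 lower, with a median of -0.01. Cdx2, a master factor of the lineage, read 5.05, 5.30, 5.44 and 5.47 in HC1 and 4.92, 5.33, 5.23 and 6.13 in HC5. The pools overlapped, and the difference was 0.09 (95% interval -0.34 to 0.51), or -0.15 without HC5 replicate 4. Krt19, a keratin of this epithelium, read 1.36, 2.37, 1.82 and 1.84 in HC1 and 2.43, 2.94, 2.19 and 2.41 in HC5, overlapping through HC1 replicate 2, with a difference of 0.64 (95% interval -0.02 to 1.31). Krt7, Krt18 and Krt8 differed by 0.41, 0.22 and 0.15, each with an interval that spans 0, and Krt8 by -0.02 without HC5 replicates 3 and 4. Tead4, the factor that sets up the lineage, differed by -0.17.

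**Figure D4:**
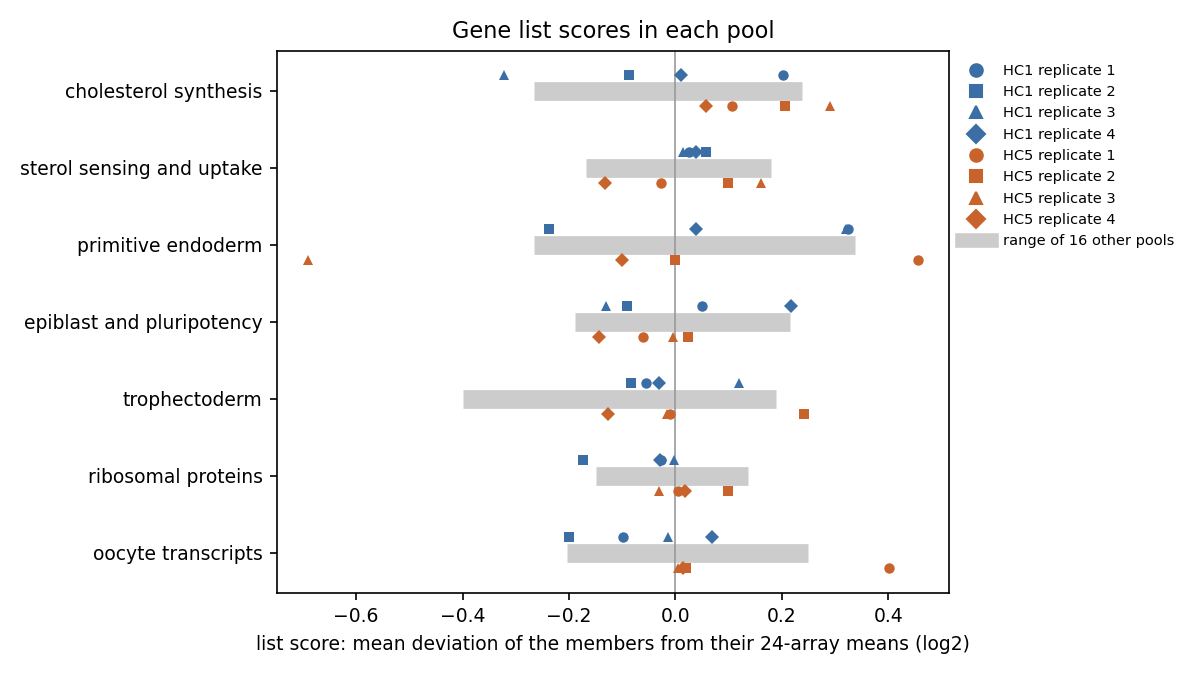
List scores (horizontal axis, mean log2 deviation of the members from their means over 24 arrays) of 7 gene lists in the 4 HC1 and 4 HC5 pools, with grey bars for the range of the 16 other pools. HC5 replicate 3 lies at -0.69 for primitive endoderm, below the grey bar, and HC1 replicate 3 at -0.32 for cholesterol synthesis.

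Estrogen receptors, which the series title concerns, showed no difference that these pools could resolve. Esr2 encodes estrogen receptor beta and was detected in all 8 pools. It read 2.57, 2.69, 2.25 and 2.62 in HC1 and 2.41, 2.65, 2.67 and 2.33 in HC5. The pools overlapped fully, and the difference was -0.02 ± 0.11 (SE), with a 95% interval of -0.24 to 0.21. Esr1, estrogen receptor alpha, and Gper1, the membrane G protein-coupled estrogen receptor, had no probe that passed the filter, and the best Gper1 probe was above background on 0 of 24 arrays. Of 16 tested receptors and coregulators, 5 were higher and 11 lower in HC5, with a median of -0.08 that became 0.07 without HC5 replicates 3 and 4. Of 12 classical estrogen targets tested, 6 were higher and 6 lower. Fos, an immediate early gene in that list, read -2.77, -2.24, -2.13 and -1.39 in HC1 and -1.62, -1.0, -0.48 and -2.32 in HC5, near background in several pools and overlapping.

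Signalling lists held few members apart. In the FGF and ERK feedback list, 14 of 23 genes were higher in HC5. Ier2, an immediate early gene, differed by 0.33 (unadjusted p = 0.0471), with 1.71 in HC5 replicate 4, and by 0.15 without it. Jun, a subunit of the AP-1 factor, read 2.16, 2.06, 2.04 and 2.44 in HC1 and 2.37, 2.61, 2.65 and 2.31 in HC5, and differed by 0.31 with an unadjusted p of 0.0502. Grb2, the adaptor that brings Sos1 to receptors, differed by -0.21 (unadjusted p = 0.0361). In the Hippo list, Ccn1 was the only one of 18 members at an unadjusted p under 0.05, where 4.67% of all genes lay. The coactivators Yap1 and Wwtr1 (TAZ) differed by -0.19 and -0.29, and both had their lowest value in HC5 replicate 4. Without that pool they differed by -0.04 and -0.03.

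Among apoptosis regulators, Apaf1, the scaffold of the apoptosome, read -0.94, -1.06, -0.96 and -1.01 in HC1 and -1.76, -1.43, -1.17 and -3.16 in HC5. All HC5 pools were lower, and replicate 4 lay far below and was not well above background there. The difference was -0.89 ± 0.29 (unadjusted p = 0.00646, adjusted p = 0.96), and without that pool it was -0.46. The mean over the kept Apaf1 probes gave -0.07, so the probes disagree. Bid, which carries the death signal to mitochondria, was higher in every HC5 pool (-0.36 to -0.05, against -0.78 to -0.39), and Bak1, a pore-forming partner, differed by 0.41 with overlapping pools. In the unfolded protein and amino acid response list, Sdf2l1, a chaperone cofactor of the endoplasmic reticulum, read 0.90, 0.89, 0.86 and 0.93 in HC1 and 1.19, 1.01, 1.16 and 1.61 in HC5. The codes were apart, and the difference was 0.35 ± 0.11 (SE, unadjusted p = 0.00541, adjusted p = 0.96), or 0.23 without HC5 replicate 4. Phgdh, the first enzyme of serine synthesis, differed by 0.31 with 6.72 in HC5 replicate 4, and by 0.19 without it.

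Outside cholesterol synthesis, 18 of 622 list members tested (2.89%) had an unadjusted p under 0.05, beside 4.67% of all genes. Among them, Tet1, which oxidises methylated cytosine, was lower in every HC5 pool (2.60 to 2.66, against 2.71 to 2.94 in HC1), a difference of -0.20. Kdm5b, a histone demethylase, differed by -0.24 and Aqp8, a water channel, by -0.44 (-0.04 without HC5 replicates 3 and 4), with overlapping pools. Gnas, an imprinted gene for a G protein subunit, was higher by 0.23. Of 36 ribosomal protein genes, 32 were higher in HC5, but the median was 0.07, and it was -0.004 after normexp correction with quantile normalization. HC1 replicate 2 had the lowest value for 12 of the 36, more than any other pool. Of 9 tested oocyte transcripts, 7 were higher, with a median of 0.17. This median was 0.04 without HC1 replicate 1 and 0.38 without HC1 replicate 4, lay between these with each other pool left out, and was 0.00 in HC5 against the 4 codes outside the pair. Zp3, a zona pellucida gene, stood at 1.44 in HC5 replicate 1 and at -0.60 or below in the other 7 pools.

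**Figure D5:**
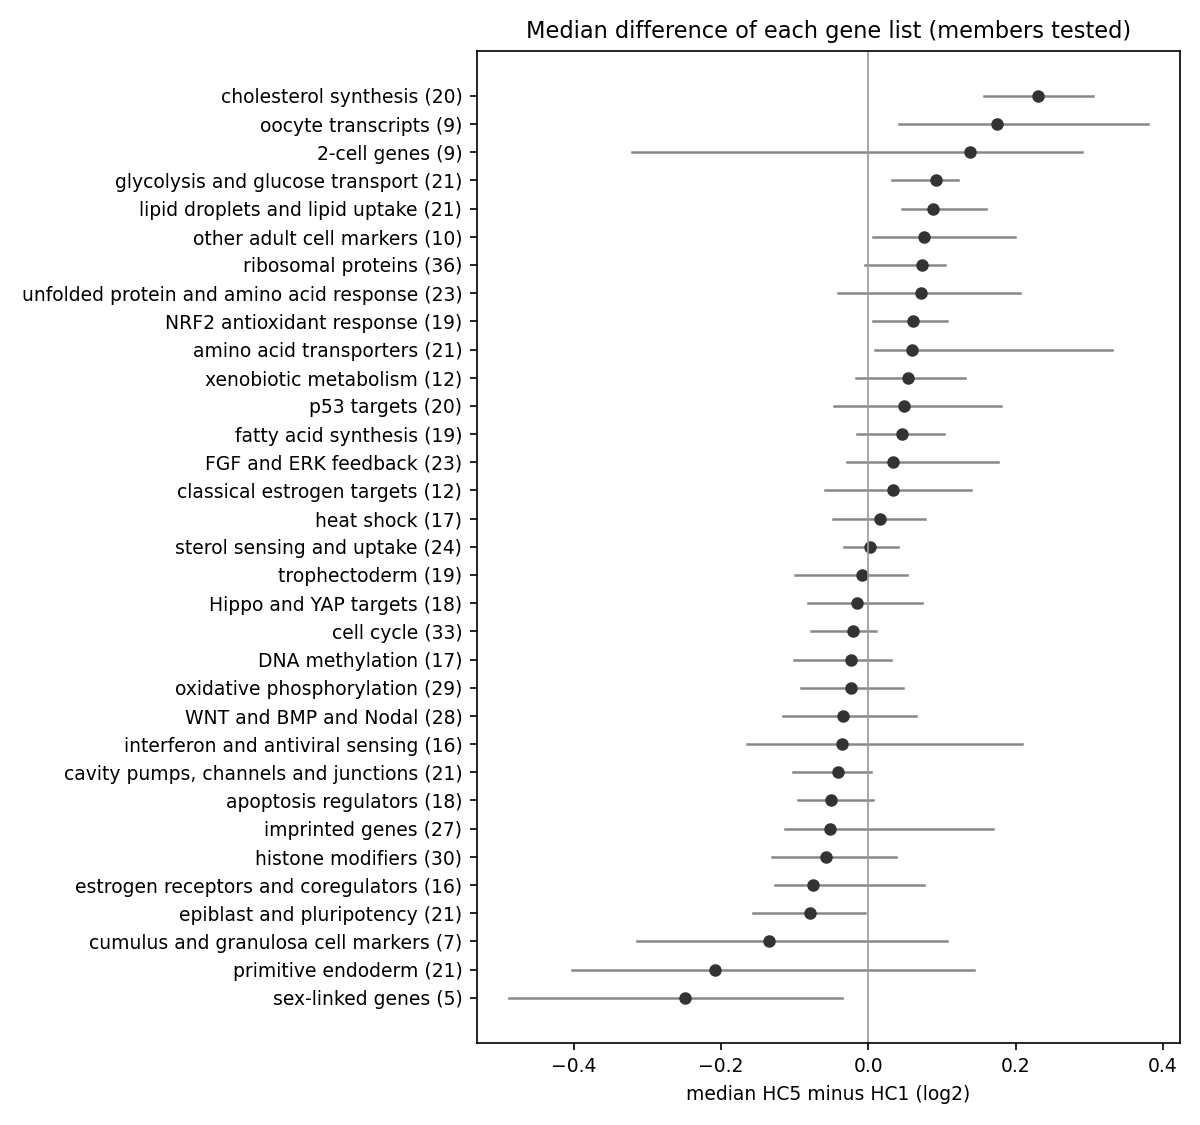
Median HC5 minus HC1 difference (log2, horizontal axis) of 33 gene lists, with the number of members tested in brackets. Points are the main values and lines the range over 25 other settings. Cholesterol synthesis lies highest, at 0.23, with a line from 0.16 to 0.31, and the line of primitive endoderm runs from -0.40 to 0.14 across 0.

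The largest spreads within a code came from single pools. Rasl10a, a small GTPase of the Ras family, read 12.01 in HC5 replicate 3 and between -0.26 and 0.67 in the other 7 pools. Pga5, a pepsinogen, and Mtmr9, a phosphatase-like protein, were also highest there, at 4.10 and 3.46. The 2 other kept probes for Mtmr9 did not share that value. In HC1 replicate 2, Tubg2 (gamma tubulin) read 3.46, Pinlyp 3.24 and Ubtd1 2.18, each above the other 7 pools of the pair. The highest of the 16 pools under other codes were 0.07 for Tubg2, 3.03 for Pinlyp and 3.02 for Ubtd1, so Pinlyp and Ubtd1 were also high elsewhere in the series. Itgb7, an integrin, read 2.20 in HC1 replicate 3 and -1.03 or below in the rest. Within the pair, each of these spreads comes from 1 array, and the difference between the codes did not pass for any of them.

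Genes of the sex chromosomes varied between pools. Xist, transcribed from the inactive X, read -1.35, 1.37, 0.32 and 1.22 in HC1 and 0.85, 0.68, 1.18 and -0.45 in HC5, lowest in HC1 replicate 1. Eif2s3y, a Y-linked translation factor, read 2.25, 0.83, 1.74 and 1.38 in HC1 and 0.96, 1.67, 1.52 and 1.05 in HC5, highest in that same pool. Ddx3y was detected above background in 4 HC1 pools and 1 HC5 pool, and Uty in 4 and 2. Differences between the codes were -0.60 for Ddx3y and -0.71 for Uty, with intervals that span 0. A second kept Uty probe, well above background on 4 of the 8 arrays, gave 0.15, so the probes of this gene disagree. Kdm5d, also Y-linked, was detected in 2 pools of each code and differed by 0.03. The part that the sex of the embryos plays in other differences was not tested. Among all 18397 genes tested, those well above background on 4 of 4 arrays of one code and 0 of 4 of the other were 1 for HC5 and 4 for HC1. Of these, Olfr821, an olfactory receptor gene of a large family of near-identical members, read -2.12 to -1.44 in HC1 and -2.82 to -2.23 in HC5, where it was not well above background. Jph3, a membrane junction gene, read -2.25 to -1.33 in HC1 and -2.54 to -1.61 in HC5, where it was also not well above background, and its pools overlapped.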

How the data were processed

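RNA of 24 pools in 6 codes of 4 was measured on one-colour Agilent arrays, 8 arrays on each of 3 slides. According to both the submitters' processing notes and, per the file headers, the scanner output itself, Agilent Feature Extraction 10.10.1.1 made the deposited scanner intensity values, and the notes also name limma. The authors' deposited log2 values served as an alternative. Processed signals without outlier spots were averaged by probe, put on a log2 scale and lowered by each array's 75th percentile. A probe was kept if it passed the scanner's background flag in 4 or more of the 24 pools and had at least 2 values per code, and the brightest stood for its gene. limma 3.58.1 (with R 4.3.3 and data.table, version 1.17.8) fitted 6 code means, with Benjamini-Hochberg adjustment, and the procedure was tested on simulated data. All adjusted p-values come from limma. Figures used Python 3.11.15 with matplotlib 3.10.9 and numpy 2.4.6.

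Named genes were the 12 of smallest p in each direction (reference symbol, well above background on all 8 arrays), cholesterol synthesis genes (2 are counted in the list and not reported here), up to 5 of smallest p in each other list, a fixed set of receptor, lineage and sex-linked genes, genes above background in one code alone, the 5 of widest gap each way, and the 6 of largest spread in each code. Genes known only by an accession or clone name were not named. Members and lists were chosen with earlier results of these data known. No label says that a replicate number marks a shared source, so the numbers were not used as pairs. Same-numbered pools deviated with correlations of 0.33, -0.365, -0.00716 and -0.301. Of 25 alternatives, 2 were chosen after seeing the data.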

Additional observations from a re-analysis of the deposited data

Results flagged for a closer look

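For each value named above, the farthest of 4 pools of a code was set against the other 3 by Dixon's test. Of 288 groups of 4 pools, 17 (5.9%) held a pool past the 95% critical value, where chance gives about 1 in 20. Of the 17, 5 belong to genes named for their spread within a code (Rasl10a, Tubg2, Itgb7, Ubtd1), where a far pool in that code follows from the choice. Itgb7 and Ubtd1 were named for their spread in HC1, so their flags in HC5 do not follow from it. Without the genes so named, left out in both codes, 12 of 274 groups (4.38%) were past it.

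HC5 replicate 4 stood apart at 3.03 for Cyp51 (2.52 to 2.59 in the other 3 HC5 pools), 2.15 for Mvd (1.11 to 1.25), 6.72 for Phgdh (6.18 to 6.26), -1.03 for Itgb7 (-1.64 to -1.57), 4.29 for Sqle, which was low (5.06 to 5.15), and -0.34 for the heat shock list score, also low (0.03 to 0.07). The second bright Cyp51 probe did not share the high value, reading lowest of the 8 pools in HC5 replicate 4. HC5 replicate 3 stood apart at 12.01 for Rasl10a (0.25 to 0.67) and -0.45 for Ubtd1 (-0.80 to -0.75). HC5 replicate 1 stood apart at 4.99 for Npc2 (3.63 to 3.86) and 0.40 for the oocyte list score (0.01 to 0.02).

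In HC1, replicate 1 was low at -0.71 for Cd68 (-0.04 to 0.06), a macrophage lysosomal marker. Replicate 2 was high at 3.46 for Tubg2 (-1.80 to -1.27) and low at -0.25 for Zfp617 (0.20 to 0.28) and -0.17 for the ribosomal protein list score (-0.03 to -0.00). Replicate 3 was high at 2.20 for Itgb7 (-1.63 to -1.20) and 0.65 for Prm2 (-1.73 to -1.59), a sperm protamine. Replicate 4 was high at 0.17 for Insig1 (-0.39 to -0.31). The causes were not tested.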

How the results depend on the processing

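Under all 25 alternatives the cholesterol synthesis median stayed positive, between 0.16 (without HC1 replicate 3) and 0.31 (without HC1 replicate 1). It was 0.20 in the authors' deposited table. Leaving out 1 pool at a time gave 0 to 1 genes called between HC1 and HC5. The 1 call came without HC1 replicate 3 and was Irx3os, lower in HC5 (limma, adjusted p = 0.000286), named after its value was seen. The smallest adjusted p otherwise ran from 0.314 to 1. HC5 against the 4 other codes gave 0 to 1 calls when 1 pool was left out (1 without HC5 replicate 1) and 2 with no filter on dim probes, and HC1 gave 0 to 1 (1 without HC1 replicate 3). Genes at an unadjusted p under 0.05 numbered 492 with the 8 arrays alone and 621 to 1313 with 1 pool left out, highest without HC5 replicate 3. Genes with non-overlapping pools numbered 198 of 13347 where probes had to be well above background on all 8 arrays (fewer genes). They numbered 578 to 849 of 18397 with 1 pool left out and 2036 of 18397 without HC5 replicates 3 and 4 (fewer samples). Fewer pools are apart more often by chance, so these counts cannot be set against the count from all 8 pools. With the replicate block, 0 genes were called and 950 had an unadjusted p under 0.05, and the block changed no call. With no filter, 37005 genes were tested in place of 18397, the added ones being those without a probe past the filter. The median difference of all genes then moved to 0.11, with 790 of the 37005 higher and 465 lower at an unadjusted p under 0.05. Other causes were not tested. Of 800 other list medians over the alternatives, 86 changed sign, as did 82 of 2839 single-gene values. Dim probes, pools of 15 embryos and 4 pools a code limit what these arrays could show.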
